A study of Rattus norvegicus with 10 samples.

Results

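The mitochondrial ribosomal proteins of rat peritoneal macrophages were compared between cells that had taken up myelin (mye-macrophages) and cells that had not (control macrophages). Members were the probe sets whose single gene symbol in the array annotation begins with Mrpl or Mrps followed by a digit. This rule found 97 of the 31042 probe sets tested, which stand for 73 of the 14217 named genes, and it used no measured value. Resident peritoneal macrophages were taken from Wistar rats (strain label Hsdcpb:WU, weight 200 to 224 grams, age not given) and were more than 95% macrophages after the non-adherent cells had been washed away. Myelin isolated from brain was given to mye-macrophages at 100 µg/ml over 3 days of culture, and control macrophages spent the same 3 days without it. IFNγ and IL-1β (100 ng/ml) were then added to both groups for 9 hours, so unstimulated cells are in neither group and every difference given here was measured under stimulation. Each group holds 5 samples with 1 Affymetrix rat 230 2.0 array each. The labels do not say whether these are separate animals, so the spread behind the p-values may be technical.

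Mitochondria translate the few proteins encoded by their own DNA, all of them subunits of the respiratory chain and the ATP synthase, on a ribosome of their own. Its ribosomal RNAs come from mitochondrial DNA, while all of its proteins are encoded in the nucleus, made in the cytosol and imported. The large subunit joins amino acids and releases the chain through an exit tunnel, and the small subunit reads the mRNA. Some of the proteins descend from those of bacterial ribosomes and others occur in mitochondria alone. Macrophages activated by inflammatory signals are known to shift their energy metabolism from respiration toward glycolysis.

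The values are log2 RMA signals, that is, log2 brightness of a probe set after background correction, equalization of the arrays and summary of its probes. They lay between -0.04 and 13.09, with array medians of 2.30 to 2.34. Over all probe sets, samples with the same replicate number varied together, and they are called a pair. A difference is the mean of the 5 pairs (mye-macrophages minus control macrophages) from limma fitted with the pair as a block. P-values from this fit rest on how the differences vary from pair to pair. Shifts shared by both samples of a pair do not enter them. The exact permutation tests use no pairs and rest on the spread between samples. A gene with several probe sets is given by the brightest one, and all 73 genes then lay above the median signal of all values. Of 9 measured macrophage markers 8 lay above that median, the exception being the scavenger receptor gene Cd163, and their summed level reached 13.5 in control macrophages and 13.6 in mye-macrophages (log2). The summed levels of control macrophages and mye-macrophages were 6.45 to 7.06 and 6.38 to 7.29 for 9 T, B and NK cell markers, 4.46 to 8.12 and 4.51 to 8.2 for 6 granulocyte and mast cell markers, and 4.76 to 6.59 and 4.68 to 6.65 for 9 markers of mesothelial cells and fibroblasts. The 9 oligodendrocyte markers summed to 7.43 to 7.69 and 7.70 to 8.13, and of them only Mobp and Bcas1 were called, both higher in mye-macrophages. The differences of the others ran from -0.20 (Mbp) to 0.13 (Mog) by the brightest probe set. The authors report a rise of Mbp on another probe set. The part of these cell types in the values below was not tested. The granulocyte and mast cell sums spread widely within each group. In arrays of whole cultures, fewer cells of a type and less RNA per cell cannot be told apart.

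No protein of the mitochondrial ribosome passed the test in either direction, and the differences of both subunits centred close to 0. Of the 97 member probe sets 0 were higher and 0 were lower in mye-macrophages at an adjusted p under 0.05 from limma, where 0.126% and 0.287% of all probe sets were called. The lowest adjusted p of a member was 0.137. At an unadjusted p under 0.05, 7 member probe sets (7.22%) were higher and 5 (5.15%) were lower, against 5.51% and 6.62% of all probe sets. By gene, 44 of 73 differences lay above 0 and 29 below, with a median of 0.03 and quartiles of -0.03 and 0.09, and 51.9% of all named genes lay above 0 with a median of 0.01. The differences of the members ranged from -0.20 (Mrpl49) to 0.29 (Mrpl48).

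The size of difference in signal that the fit with the pair as a block leaves room for is given by the intervals. The 95% interval of the difference lay within 1.5-fold in either direction (0.58 on the log2 scale) for all 97 member probe sets and within 1.2-fold for 59 of them. Over the 73 genes the lowest interval bound was -0.37 and the highest was 0.45, and the median standard error was 0.07. The intervals are not adjusted for the number of members, and they hold for the fit with the block. Without the block the standard error was 0.26 for Mrpl54 and 0.26 for Mrpl52, against 0.08 and 0.07 with it. For Mrps26 it was 0.06 against 0.07. Intervals without the block were not computed.

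**Figure D1:**
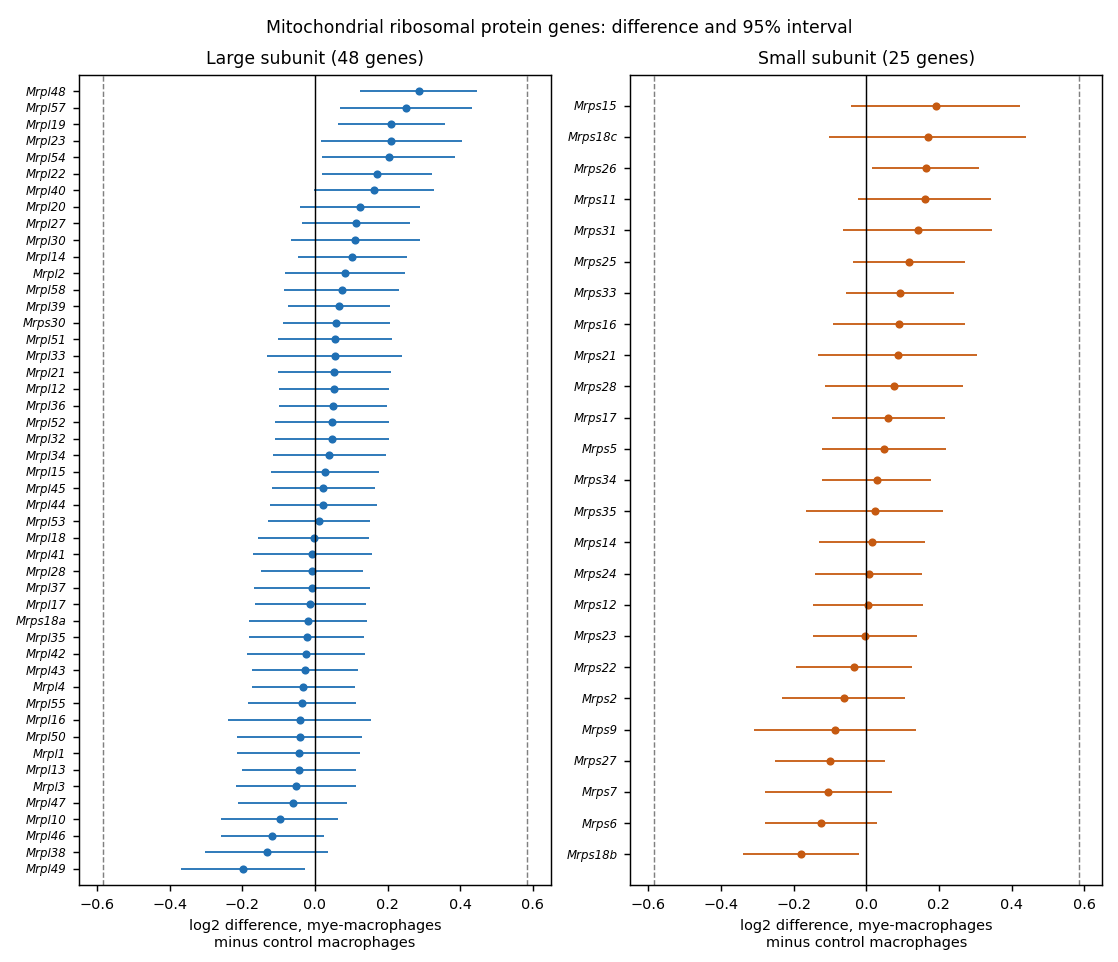
Log2 difference (mye-macrophages minus control macrophages) of each of the 73 genes, 1 point per gene with its 95% interval from limma with the pair as a block, for 48 genes of the large and 25 of the small subunit. Dashed lines mark a 1.5-fold difference, which no interval reaches, and the points run from -0.20 to 0.29.

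The large and the small subunit were described apart. Following the structure of the mammalian ribosome, Mrps30 and Mrps18a were counted with the large subunit despite their names. Of 48 large subunit genes 27 lay above 0 (median 0.03), and of 25 small subunit genes 17 lay above 0 (median 0.03). The 42 genes listed with a counterpart in bacteria had a median of 0.04 and the 31 genes listed as particular to mitochondria a median of 0.02. Of the related genes Mrps18a, Mrps18b and Mrps18c, this list counts only Mrps18c with a bacterial counterpart. Neither pair of medians was tested for a difference.

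The member with the lowest p was Mrpl48, a protein of the central protuberance, the part of the large subunit that faces the head of the small one. Its log2 signals in control macrophages were 5.59, 5.24, 5.49, 5.70 and 5.60 in replicates 1 to 5, and in mye-macrophages 6.04, 5.51, 5.81, 5.99 and 5.69. Mye-macrophages were above control macrophages in 5 of 5 pairs, while the groups overlapped. The difference was 0.29 (1.22-fold, standard error 0.07, 95% interval 0.12 to 0.45, adjusted p = 0.137 from limma, two-sided exact permutation test without pairs p = 0.0556). With another variance prior (trend and robust in limma) its adjusted p was 0.0462. Of the other 5 genes of the central protuberance, Mrpl40 had 0.16 and Mrpl27 0.11, and Mrpl18 (-0.0041), Mrpl46 (-0.12) and Mrpl38 (-0.13) lay at or below 0.

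Mrps26, a small subunit protein without a bacterial counterpart, was the only member whose groups did not overlap. Its control signals were 6.30, 6.39, 6.36, 6.38 and 6.30, and its signals in mye-macrophages 6.56, 6.53, 6.47, 6.47 and 6.53. Every sample of mye-macrophages was thus above every control sample, on 1 of 97 member probe sets (1.03%), while 0.451% of all probe sets were separated in this direction and 0.283% in the other, where there was no member. The difference was small (0.16, standard error 0.07, 95% interval 0.01 to 0.31, adjusted p = 0.364 from limma). The two-sided exact permutation p was 0.00794, the smallest that 5 against 5 samples allow. A dim second probe set of Mrps26, below the median of all values, had -0.08 (standard error 0.09).

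Further members with the largest positive differences were Mrpl57 (0.25), Mrpl19 (0.21), Mrpl23 (0.21), Mrpl54 (0.20), Mrps15 (0.19), Mrpl22 (0.17) and Mrps18c (0.17), with adjusted p-values of 0.235 to 0.633 from limma. Mrpl22 and Mrpl23 line the exit tunnel through which the new chain leaves, Mrpl19 and Mrps15 have bacterial counterparts, and Mrpl54 and Mrpl57 are particular to mitochondria. Mrpl57 had 6.73, 6.23, 6.73, 7.17 and 6.80 in control replicates 1 to 5 and 7.22, 6.43, 7.03, 7.43 and 6.79 in mye-macrophages. It was higher in 4 of 5 pairs and level in the fifth. The second probe set of Mrpl57 had 0.12. Mrps15 and Mrps18c rested largely on mye-macrophage replicate 1, with signals of 6.94 and 5.85 in it, and their differences were 0.08 and 0.04 without pair 1, while Mrps18c had 0.27 without pair 2. Mrpl23 had 0.57 in pair 1 and 0.07 to 0.16 in the others, and its difference was 0.12 without pair 1.

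The largest negative differences were those of Mrpl49, a large subunit protein particular to mitochondria, and Mrps18b. For Mrpl49 the control signals were 7.09, 7.45, 6.79, 6.48 and 7.06 and those of mye-macrophages 6.91, 6.99, 6.69, 6.31 and 6.99. It was lower in 5 of 5 pairs by 0.07 to 0.46, the groups overlapped, and the mean difference was -0.20 (standard error 0.08, adjusted p = 0.339 from limma), with -0.16 on the second probe set. Mrps18b had 7.59, 7.99, 7.30, 6.94 and 7.38 in control macrophages and 7.24, 7.72, 7.20, 6.83 and 7.30 in mye-macrophages, again lower in 5 of 5 pairs (-0.18, standard error 0.07, adjusted p = 0.350 from limma). Its paralogs differed from it in sign or size, with -0.02 for Mrps18a and 0.17 for Mrps18c, none of which passed. Mrpl38 (-0.13), Mrps6 (-0.13), Mrpl46 (-0.12), Mrps7 (-0.11), Mrps27 (-0.10) and Mrpl10 (-0.10) followed, with adjusted p-values of 0.503 to 0.648 from limma. Without pair 2, Mrps7 had -0.05, Mrpl38 -0.09 and Mrpl10 -0.06.

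Over all members, 13 of the 97 probe sets (13.4%) were higher in 5 of 5 pairs and 4 (4.12%) were lower in 5 of 5, where 6.16% and 6.59% of all probe sets were. The 12 genes behind the first count, by their brightest probe set, are Mrpl14, Mrpl19, Mrpl20, Mrpl22, Mrpl23, Mrpl27, Mrpl39, Mrpl48, Mrpl54, Mrps25, Mrps26 and Mrps33. Of these 9 are in the large subunit, which holds 48 of the 73 genes. By gene, 1103 of the 14217 named genes were higher in every pair and 1098 were lower. Of 47 cytosolic ribosomal protein genes 18 were higher in every pair and 2 were lower. Of 78 genes of oxidative phosphorylation subunits 20 were higher and 3 were lower. The 3 member genes lower in every pair are Mrpl46, Mrpl49 and Mrps18b, while Mrps27 was lower in 4 pairs and equal in pair 4. The members of a ribosome are not independent of each other, and these counts carry no test.

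**Figure D2:**
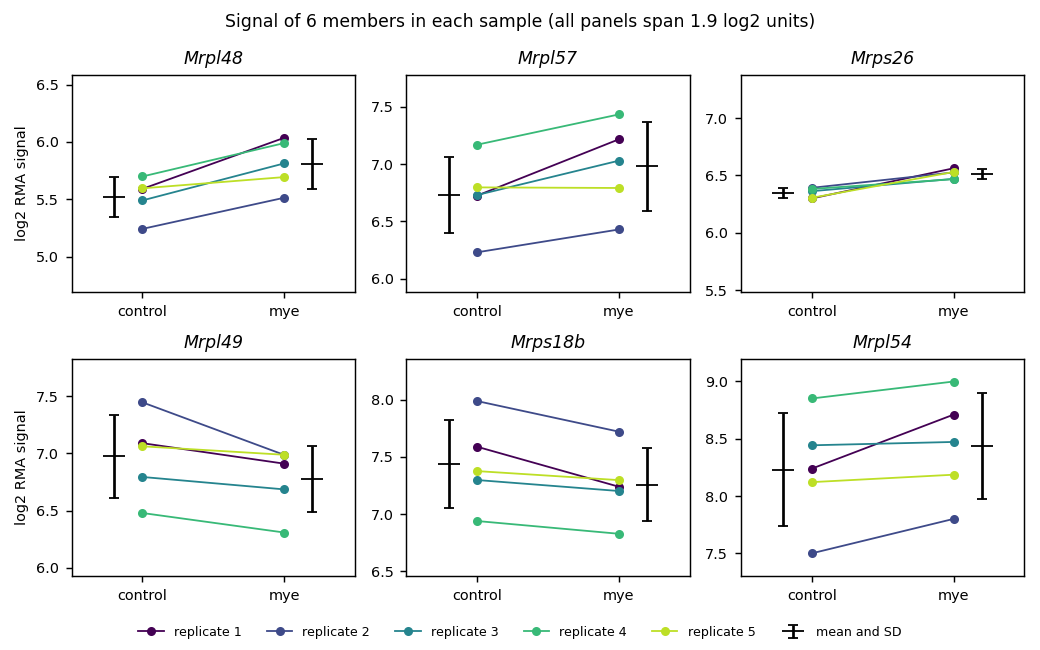
Log2 RMA signal of 6 members in control macrophages and mye-macrophages, with lines joining samples of the same replicate number and black bars for the mean ± SD of 5 samples. Mrps26 is the only one whose groups do not overlap. In the others the lines lie farther apart than they slope on average, least so in Mrpl48, whose pair means span 0.47 against a difference of 0.29.

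The other sites of the ribosome held no member that passed. In the stalk that recruits translation factors, Mrpl10 had -0.10 and Mrpl12 had 0.05. Around the exit tunnel, Mrpl22 (0.17) and Mrpl23 (0.21) stand beside Mrpl45, a protein particular to mitochondria, with 0.02 and Mrpl47 with -0.06. Mrps12, at the decoding centre of the small subunit, had signals of 7.41 to 7.61 in control macrophages and 7.39 to 7.55 in mye-macrophages and a difference of 0.00 (95% interval -0.15 to 0.16). Mrps5 and Mrps24, along the path of the mRNA, had 0.05 and 0.01. The large subunit genes Mrpl11 and Mrpl24 are not named by the annotation and were not analysed here.

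Of the 73 genes 18 had 2 to 4 probe sets. Those of 6 genes lay on both sides of 0, and none did so by more than 0.1 on each side. Mrpl37 spread most widely, with -0.01 on the brightest probe set, -0.27 on a dimmer one and 0.10 on one below the median of all values. Mrpl52 had 0.05 on its brightest probe set and -0.19 on another, and Mrps27 had -0.10 on its brightest and -0.31 and -0.12 on dimmer ones. The probe sets of Mrpl49, Mrps18b, Mrps27, Mrpl37 and Mrpl52 make up the 5 with a negative difference at an unadjusted p under 0.05, and the last 2 were named after their values were seen. RefSeq lists Mrpl41l1, Mrpl42l1 and Mrps21l as further genes named after Mrpl41, Mrpl42 and Mrps21, so the values of these members may include signal of a copy.

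The members differed far more between replicate numbers than between groups. For the median gene, 80.5% of the variance between the 10 samples lay between replicate numbers, 4.09% between mye-macrophages and control macrophages. An even split by degrees of freedom would give 44.4% and 11.1%. The corresponding medians over all named genes were 65.5% and 5.44%. The replicate number held the largest share for 68 of the 73 genes (93.2%, against 73.8% of all named genes) and the group for 2 (2.74%, against 3.52%), Mrps26 with a share of 82.3% and Mrpl19 with 52.8%. Of the named genes 5100 of 14217 lay below the median of all values, and brightness was not matched. On the lists given below, the replicate number held the largest share for 93.6% of oxidative phosphorylation subunits and 78.7% of cytosolic ribosomal proteins. It did so for 73.3% of translation factors and 100% of the genes of ribosome assembly and rRNA modification. A high share was thus not particular to the members. The distance between the highest and the lowest pair mean was 0.32 for the median member gene, 1.28 for Mrpl54 and 0.33 for the median of all named genes.

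These shifts between pairs ran in opposite directions for different proteins of the same ribosome. The pair numbered 2 was highest and that numbered 4 lowest for 20 genes, and the reverse held for 17. Mrps18b, for example, had pair means of 7.85 in pair 2 and 6.88 in pair 4, and Mrpl47 had 7.03 and 6.14. Mrpl54 had 7.65 in pair 2 and 8.93 in pair 4, and Mrps28 had 4.69 and 5.94. Among all named genes 16.9% followed the first pattern and 14.7% the second, against 27.4% and 23.3% of the members. Here too the named genes include dim ones, and brightness was not matched. Pairs 2 and 4 were not chosen before the values were seen, and these shares were not tested. Over all named genes they were also most often the highest (27.9% and 26.7%) and the lowest (29.8% and 29.8%). What the replicate numbers stand for is not given in the sources used here.

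**Figure D3:**
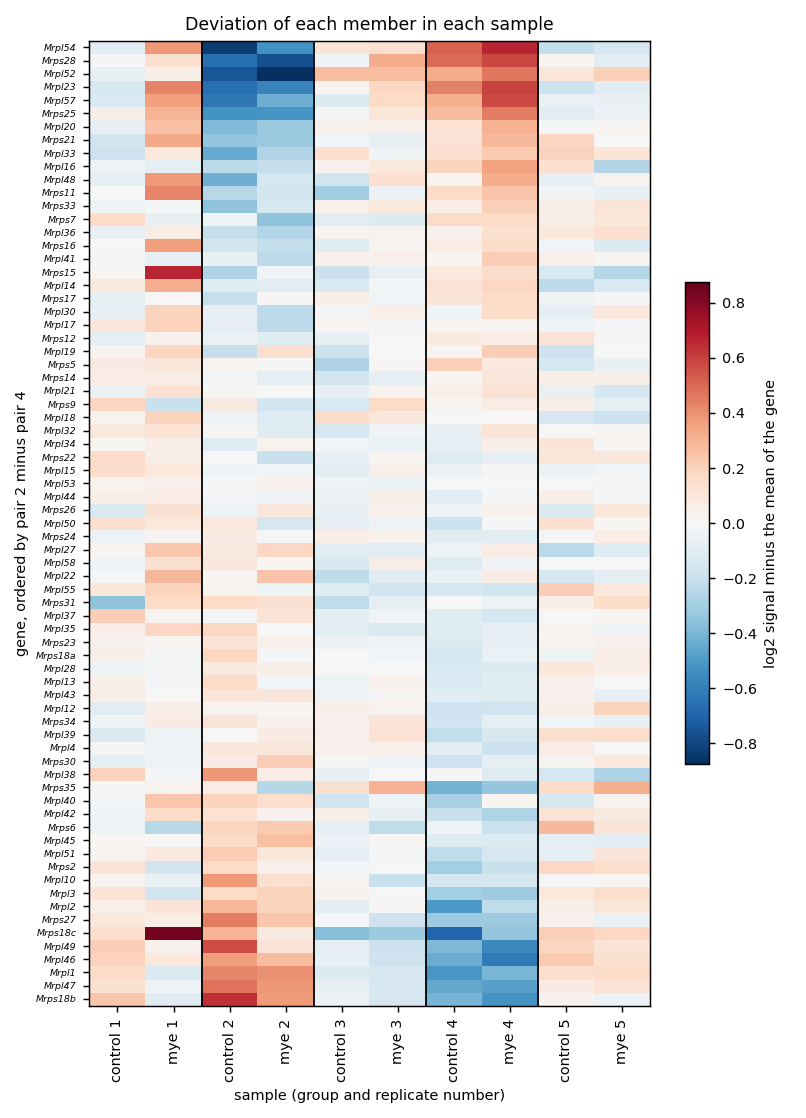
Log2 signal of each of the 73 genes in each of the 10 samples minus the mean of the gene, with samples of the same replicate number side by side and genes ordered by pair 2 minus pair 4. Colour follows the replicate number more than the group, with blue in pair 2 and red in pair 4 for Mrpl54 at the top and the reverse for Mrps18b at the bottom.

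The level of the whole set was taken as the mean over the 73 genes of the log2 signal minus the mean of the gene. It was 0.02, -0.01, -0.05, -0.06 and 0.02 in control replicates 1 to 5 and 0.11, -0.05, -0.00, 0.01 and 0.02 in mye-macrophages. The groups overlapped, and the mean difference within pairs was 0.03 ± 0.05 (SD, n = 5 pairs). Within pairs 1 to 5, 47, 28, 48, 54 and 38 of the 73 genes were higher in mye-macrophages. The direction thus turned in pair 2, where the median gene had -0.04, and in pair 5 the median gene had 0.01. As a measure of RNA integrity, the signal of the beta-actin controls fell off from the 3 prime to the 5 prime end by 3.02 ± 0.30 (log2, SD, n = 5) in control macrophages and by 3.30 ± 0.32 in mye-macrophages (two-sided exact permutation test without pairs, p = 0.190). Within pairs 1 to 5 this gap differed by 0.82, 0.45, -0.21, 0.00 and 0.29 between mye-macrophages and control macrophages. With the gap as a covariate the median over the 73 genes was 0.03, as without it, but several single members came closer to 0. Mrps15 had 0.05 in that fit, Mrpl54 0.09, Mrps18c 0.07, Mrpl23 0.12, Mrpl27 0.07, Mrps18b -0.11, Mrpl38 -0.05 and Mrps7 -0.03.

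Genes of the other ribosome and of oxidative phosphorylation subunits lay further above 0. The listed subunits are nuclear genes, so their proteins are not made by the mitochondrial ribosome. Of 47 cytosolic ribosomal protein genes 39 lay above 0 (median 0.10), and of 78 genes of oxidative phosphorylation subunits 61 did (median 0.09). None of either list passed. The lowest adjusted p among the cytosolic genes was that of Rpl26l1, which was lower in mye-macrophages (-0.29, adjusted p = 0.161 from limma). Their largest positive difference was that of Rpl34 (0.26, adjusted p = 0.229 from limma). Among the oxidative phosphorylation subunits the lowest was that of Ndufs8, which was higher (0.37, adjusted p = 0.0765 from limma). Both lists had a median above 0 in 5 of 5 pairs, where the mitochondrial ribosomal proteins had one in 4, and pair 1 gave the largest, with 0.25 and 0.22 against 0.01 to 0.13 in the other pairs. In pair 1, where the beta-actin gap also differed most (0.82), the mitochondrial ribosomal proteins had a median of 0.07. The part of RNA integrity in these medians was not tested. No test of these differences between lists was made.

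**Figure D4:**
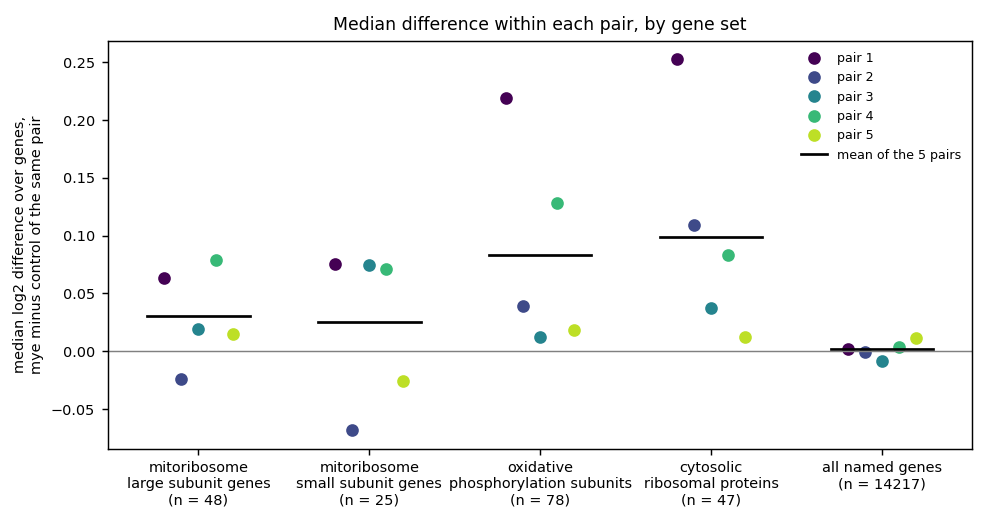
Median over genes of the log2 difference within each of the 5 pairs, for the large and small subunit of the mitochondrial ribosome, oxidative phosphorylation subunits, cytosolic ribosomal proteins and all named genes, with the mean of the 5 pairs as a black bar. Subunits of the mitochondrial ribosome lie on both sides of 0. Cytosolic ribosomal proteins and oxidative phosphorylation subunits lie above 0 in each pair and highest in pair 1.

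No gene on the other lists of mitochondrial protein synthesis passed either. Of 5 ribosomal proteins that carry other names all lay above 0, from 0.02 for Dap3 to 0.17 for Gadd45gip1, a large subunit protein also known as CRIF1. The 15 genes listed as translation factors include those that start, extend and end the chain and others, among them Oxa1l, Letm1 and Pdf. Tufm, an elongation factor gene, had 0.00 on its brightest probe set and -0.12 and -0.32 on the others. By the brightest probe set Mtif2, the initiation factor, had the highest value (0.08). Mtrfr, of the release factor family, had the lowest (-0.26, standard error 0.13). Of 16 genes that serve the loading of tRNAs with amino acids, 8 lay above 0 and 8 below. They ran from -0.17 for the histidine enzyme Hars2 to 0.28 for the tyrosine enzyme Yars2. Of 26 genes of ribosome assembly and rRNA modification, 17 lay below 0 (median -0.04), and the helicase gene Dhx30 had the lowest value (-0.13). By the brightest probe set, none of these lists had a member at an adjusted p under 0.05 from limma (lowest 0.359). A dimmer probe set of Letmd1 had 0.22 (adjusted p = 0.204 from limma), against -0.11 on its brightest one.

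Among 15 genes of mitochondrial transcription and RNA handling, 10 lay below 0 (median -0.03) and none passed. Trmt10c, a subunit of the RNase P that cuts tRNAs out of mitochondrial transcripts, had -0.22 (standard error 0.07, lower in 5 of 5 pairs, adjusted p = 0.237 from limma) and the elongation factor gene Tefm -0.24. Slirp, which binds mitochondrial mRNAs, had the highest value (0.22, standard error 0.11) on its brightest probe set and 0.03 on the other. Of 9 nuclear regulators, Myc had 0.40 (standard error 0.11, adjusted p = 0.202 from limma) and Ppargc1b, a coactivator of respiratory genes, 0.25, while Nrf1, Gabpa and Yy1 had -0.10, 0.06 and -0.14.

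The promoters of the members are shown for the proteins with the largest positive difference (Mrpl48 and Mrpl57), the largest negative difference (Mrpl49 and Mrps18b) and separate groups (Mrps26). Sequences are from RefSeq (build GRCr8), from 200 bases before to 30 bases after the start of the gene, in the direction of transcription. Capitals mark matches on either strand to motifs of factors known for nuclear genes of mitochondrial proteins. These are CCGGAAG for ETS factors such as GABP, GCGCA and GCGC around any 1 base for NRF1, and AAGATGGC for YY1.
Mrpl48, chr1:164351347-164351576, strand minus: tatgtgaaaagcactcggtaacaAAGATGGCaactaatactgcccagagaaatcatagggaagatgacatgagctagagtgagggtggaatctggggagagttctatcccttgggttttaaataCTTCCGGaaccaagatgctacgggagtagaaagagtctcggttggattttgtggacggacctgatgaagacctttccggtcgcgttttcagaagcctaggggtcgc
Mrpl57, chr15:36086257-36086486, strand plus: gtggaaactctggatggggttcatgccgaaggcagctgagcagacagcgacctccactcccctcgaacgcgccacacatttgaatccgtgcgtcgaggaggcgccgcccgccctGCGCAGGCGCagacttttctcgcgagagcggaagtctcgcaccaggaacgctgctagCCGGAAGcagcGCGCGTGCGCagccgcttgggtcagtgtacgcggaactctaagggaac
Mrps26, chr3:138222124-138222353, strand plus: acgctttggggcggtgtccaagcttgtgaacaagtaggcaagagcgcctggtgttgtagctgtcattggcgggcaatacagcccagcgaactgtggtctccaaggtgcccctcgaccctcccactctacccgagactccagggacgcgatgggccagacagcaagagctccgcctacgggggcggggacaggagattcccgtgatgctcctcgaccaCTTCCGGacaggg
Mrpl49, chr1:212779298-212779527, strand minus: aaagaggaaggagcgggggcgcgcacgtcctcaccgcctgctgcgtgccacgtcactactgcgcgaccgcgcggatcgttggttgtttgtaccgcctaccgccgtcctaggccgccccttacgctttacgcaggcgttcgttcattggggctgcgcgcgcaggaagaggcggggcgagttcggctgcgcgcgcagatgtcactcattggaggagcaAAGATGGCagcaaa
Mrps18b, chr20:2842806-2843035, strand plus: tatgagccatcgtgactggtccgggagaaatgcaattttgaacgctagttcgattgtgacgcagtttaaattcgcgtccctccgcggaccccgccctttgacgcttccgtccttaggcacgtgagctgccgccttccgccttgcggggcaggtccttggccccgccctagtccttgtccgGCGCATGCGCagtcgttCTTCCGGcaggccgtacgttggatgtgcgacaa

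Mrpl57 held an ETS match and a pair of NRF1 matches close to its start, Mrps18b matches to all 3 motifs (that of YY1 beyond the printed end), Mrpl49 a YY1 match after its start and Mrpl48 an ETS and a YY1 match before it. Mrps26 held an ETS match after its start and an NRF1 match that also lies beyond the printed end. Windows of 300 bases were given for 59 of the 73 genes (61 windows). The ETS motif was in 32.8% of these windows, against 14.2% of the windows of genes on the array and 8.75% of all windows. The NRF1 motif was in 14.8% (7.88% and 4.25%) and the YY1 motif in 23.0% (4.48% and 3.17%). A match describes the letters of the window and nothing about binding.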

How the data were processed

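The authors deposited log2 values of every probe set after RMA, made with the affy package from Affymetrix rat 230 2.0 arrays. Versions are not given in the sources used here, nor is a reason for the low medians. The fits did not include the 57 controls of the manufacturer. A linear model, blocked on replicate number, was fitted to the other 31042 probe sets (limma 3.58.1 with eBayes, R 4.3.3), with Benjamini-Hochberg adjustment over all of them and a threshold of 0.05, so that each member has an adjusted p. The methods name an unpaired test after removal of 50% of the probe sets, and both were tried as alternatives. Over all probe sets, deviations from the group means correlated at 0.404 to 0.791 for samples with the same number and at most at 0.279 across numbers. Same-numbered samples were therefore treated as pairs. Over the member probe sets alone these values were 0.201 to 0.869 and at most 0.347, so they overlapped. The number of arrays limits the precision. Intervals are 95% intervals of the moderated fit. Exact permutation tests were run over the 10 samples without pairs. The fit was tested on simulated data.

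The members, lists, motifs and named genes were chosen with earlier results of these data known. Named members are, by the brightest probe set, the 8 largest differences in each direction, those whose groups do not overlap, those of listed sites of the ribosome and the Mrps18 genes. Cytosolic ribosomal proteins and oxidative phosphorylation subunits were taken by symbol. Gene symbols are those of the annotation table of the array, promoters were matched by gene ID and searched in Python 3.11, and figures drawn with matplotlib 3.10.9. Alternatives were the fit without the block, a variance filter, a filter on dim probe sets, quantile normalization and centring of the arrays, another variance prior, array weights, the beta-actin gap as a covariate, probe sets without shared probes, the methods' t-test, other probe sets per gene and each pair left out.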

Additional observations from a re-analysis of the deposited data

How the results depend on the processing

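No member probe set was called lower under any of the 15 alternative fits, and 1 was called higher (Mrpl48, adjusted p = 0.0462) with trend and robust in eBayes of limma, where 648 of 31042 probe sets were called. Without the replicate block limma called 0 member probe sets in either direction (lowest adjusted p = 0.996) and the methods' t-test 0 (0.850), with 3 and 3 higher and 0 and 0 lower at an unadjusted p under 0.05. These fits called 0 of all the 31042 and 15521 probe sets tested. The t-test was read here after Benjamini-Hochberg adjustment, which the methods do not name, so its calls are not those of the study. Counts at an unadjusted p cover all 97 member probe sets, also those that the variance filter removes. With the gap of the beta-actin controls added to the replicate block as a covariate these counts were 2 higher and 0 lower, against 7 and 5 in the fit reported. Counts at an unadjusted p were added after seeing the data. With 1 pair left out they ran from 3 to 8 higher and from 2 to 8 lower, and 0 members were called. The median over member genes stayed between 0.01 and 0.06 in all alternatives. Signs turned for 5 of 27 named members, all near 0. Mrpl18 had 0.0022 with quantile normalization and ran from -0.047 to 0.015 with 1 pair left out. Mrps12 had -0.0086 with array weights and -0.0081 with the beta-actin gap, and ran from -0.026 to 0.033. Mrps18a had 0.0076 and 0.017 under the same settings and ran from -0.052 to 0.027. Mrps24 had -0.013 with the beta-actin gap and ran from -0.012 to 0.030, and Mrps5 ran from -0.011 to 0.091. The variance filter keeps 47 of the 97 member probe sets, and the others have no adjusted p there. The causes of these changes were not tested.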

Other observations

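The members that share the YY1 motif in the promoter window lay lower than the others. Of 14 genes with AAGATGGC 4 had a difference above 0 (median -0.03), and of 45 genes without it 32 did (median 0.05). The same genes were higher in pair 2 than in pair 4 for 10 of 14, against 23 of 45. Yy1 itself had -0.14 on its brightest probe set (standard error 0.07, adjusted p = 0.441 from limma), and 0.08, -0.0018 and -0.26 on the others. Of 20 genes with the ETS motif 15 lay above 0 (median 0.08), against 21 of 39 without it (median 0.02), and of 9 genes with the NRF1 motif 7 did (median 0.05), against 29 of 50 (median 0.05). The motifs were chosen with the values of the members known, none of the splits was tested, and 1 member with the YY1 motif, Mrpl48, had the highest difference of all.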
